A study of Mus musculus with 6 samples.

Results

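The 10 genes described here, F13a1, Emilin2, Lyz2, Hp, Lrg1, Ms4a6c, Igsf6, Ifitm6, Fpr1 and Mefv, encode effector proteins of the monocyte lineage and were read by symbol from 16135 genes listed in any of 6 mouse libraries. They were selected on their deposited counts and FPKM, with the levels in all 3 sorted subsets in view. Their levels and differences between subsets are therefore given as a description, with no test. The libraries hold polyadenylated RNA of common dendritic cell progenitors, the marrow precursors of dendritic cells. All came from wildtype C57BL/6 mice aged 6 to 8 weeks, with no treatment named. The cells were sorted by CD115, the receptor of the growth factor M-CSF, and by Ly6C, a surface antigen of monocytes and their precursors. The 3 subsets, CD115+Ly6C-, CD115+Ly6C+ and CD115-Ly6C-, have 2 libraries each. Whether these came from separate animals or sorts is not stated, so the p-values below cover no more than the spread between these 6 samples, and that spread may be technical.

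Monocytes arise from myeloid progenitors of the bone marrow, circulate in blood and enter inflamed tissue, where they take up microbes and become macrophages or dendritic-like cells. Their products include secreted enzymes and plasma-type proteins that act on bacteria, blood clots and matrix, receptors that sense bacterial peptides, and cytosolic sensors that start inflammation. Several of these products, lysozyme, haptoglobin, Lrg1 and the formyl peptide receptor among them, are also made by neutrophils, the other phagocyte of the marrow.

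The libraries held 17961541 to 19450329 expected counts (estimated read counts) and 13307 to 14127 genes with reads. Levels of a gene between libraries are given as CPM, the count scaled by TMM to a common library size, and levels between genes as FPKM, which also divides by transcript length. The progenitor genes Flt3, Csf1r, Kit and Irf8 had reads in all 6 libraries, with a summed level of 3401 to 3980 CPM, most of it Irf8. Flt3 and Kit took the opposite order to the 10 genes, with Flt3 at 373 and 342 CPM in CD115+Ly6C+, 666 and 657 CPM in CD115+Ly6C-, and 1139 and 1063 CPM in CD115-Ly6C-. Between the CD115+ subsets both were lower in CD115+Ly6C+ (log2 fold change -0.89 and -0.91, edgeR adjusted p = 0.00241 and 0.00599). Csf1r, whose protein CD115 was sorted on, took the same order as most of the 10 genes. It stood at 553 and 531 CPM in CD115+Ly6C+, 414 and 513 CPM in CD115+Ly6C-, and 213 and 259 CPM in CD115-Ly6C-. Its level in CD115+Ly6C+ exceeded that of CD115-Ly6C- (1.20, edgeR adjusted p = 0.0004). Since the sort separated these subsets by CD115, nothing further is read from that difference. No difference was detected between the CD115+ subsets for Csf1r or Irf8 (0.23 and 0.03, edgeR adjusted p = 0.324 and 0.88). Nor was one detected for Irf8 in CD115+Ly6C+ over CD115-Ly6C- (0.29, edgeR adjusted p = 0.0817). Of 6 monocyte markers, Ccr2 and Ly86 made up most of the signal, while Vcan stayed under 1 CPM in every library. The summed monocyte level was 1144 and 1270 CPM in CD115+Ly6C+, 644 and 725 CPM in CD115+Ly6C-, and 295 and 382 CPM in CD115-Ly6C-. In such bulk samples, fewer cells of a type and less RNA per cell cannot be told apart.

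The sequences just before the start of the genes are shown first, since members at similar places in the order of the subsets can be set beside each other. They come from RefSeq promoter windows on GRCm38.p6, the assembly also called mm10. Of the 10 genes, 9 matched the promoter table, with 11 windows, and Hp is named only. Windows were searched on both strands over the 250 bases before the start for the C/EBP motif TTNCNNAA, bound by factors of myeloid cells. The motif was found in 9 of 11 windows, which belong to 8 of 9 genes, against 36.8% of 32851 windows of all genes. In the last 100 bases it was found in 7 of 11 windows, those of 7 genes, against 14.9% of all windows. Lrg1 had no match in either window, and Emilin2 had matches only beyond the last 100 bases. The PU.1 motif GAGGAAGT was found in 0 of 11 windows, against 2.44% of all windows. The ETS-IRF composite was found only for Ifitm6 (2.3% of all windows), more than 100 bases before its start. The interferon-stimulated response element core was found only for Emilin2 (2.98% of all windows), 24 bases before its start and inside an annotated exon. A match is a run of letters, not a site shown to be bound.

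Printed below are the stretches of 5 genes with a C/EBP match near the start, 5′ to 3′ on the strand of the gene, with each match in capitals. They end before the first annotated exon base and lie outside the gene as annotated. Igsf6 is at chr7:121074582-121074630 (minus strand), Ifitm6 at chr7:141016909-141016992 (minus), F13a1 at chr13:37050245-37050344 (minus), Fpr1 at chr17:17883941-17884039 (minus) and Ms4a6c at chr19:11469268-11469352 (plus).
Igsf6: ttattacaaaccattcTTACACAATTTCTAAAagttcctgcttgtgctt
Ifitm6: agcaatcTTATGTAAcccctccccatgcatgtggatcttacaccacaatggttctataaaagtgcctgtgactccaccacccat
F13a1: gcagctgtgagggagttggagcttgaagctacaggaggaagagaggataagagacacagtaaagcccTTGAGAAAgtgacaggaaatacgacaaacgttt
Fpr1: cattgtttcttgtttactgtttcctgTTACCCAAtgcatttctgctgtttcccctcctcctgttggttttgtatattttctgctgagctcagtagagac
Ms4a6c: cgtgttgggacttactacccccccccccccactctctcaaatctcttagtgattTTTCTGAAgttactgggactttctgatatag
In Igsf6 the capitals hold 2 adjoining matches, 84 and 76 bases before the start used in the promoter table. In the other 4 genes they hold 1 match each, at 93 bases for Ifitm6, 33 for F13a1, 74 for Fpr1 and 46 for Ms4a6c. Mefv had its match 39 bases before the start, inside its annotated span. Igsf6 had further matches at 53, 19 and 18 bases, which lie in or run into its own annotated span.

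Lyz2 and its neighbour Lyz1 are a duplicated gene pair and are shown together because their transcripts followed the same course below. Lyz2 is at chr10:117282322-117282372 and Lyz1 at chr10:117292918-117292968, both on the minus strand. Capitals mark the 8 of 51 bases that differ, and 43 are the same.
Lyz2: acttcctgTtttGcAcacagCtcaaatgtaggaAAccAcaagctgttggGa
Lyz1: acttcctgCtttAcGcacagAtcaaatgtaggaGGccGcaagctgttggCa
Lyz2 has its C/EBP match 55 bases before the start, where it runs past the printed stretch into an annotated exon. The last base in capitals lies inside this match. Lyz1 has no match in the last 100 bases, only 1 at 209 bases. Over the 100 bases before the start, 92.0% of bases were the same in the pair, and over 250 bases 60.8%, compared without gaps. Of the 100 bases of Lyz2, 49 lie in an annotated exon, and the 92.0% includes them.

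Levels of the 10 genes followed 1 order in most cases, highest in CD115+Ly6C+, then CD115+Ly6C-, then CD115-Ly6C-. Both CD115+Ly6C+ libraries stood above both CD115+Ly6C- libraries for 10 of 10 genes, as they did for 28.8% of the 12127 genes tested. They also stood above both CD115-Ly6C- libraries for 10 of 10, against 34.8% of genes tested. CD115+Ly6C- stood above CD115-Ly6C- without overlap for 8 of 10, against 29.8%, and overlapped for Lyz2 and Lrg1. By edgeR with adjusted p under 0.05, 10, 10 and 6 of the 10 genes were past the threshold in these comparisons, beside 5.26%, 19.2% and 6.78% of all genes called higher. The first of these counts was 6 without CD115+Ly6C+ replicate 2. Nothing is read from these counts, because the same values chose the genes.

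**Figure D1:**
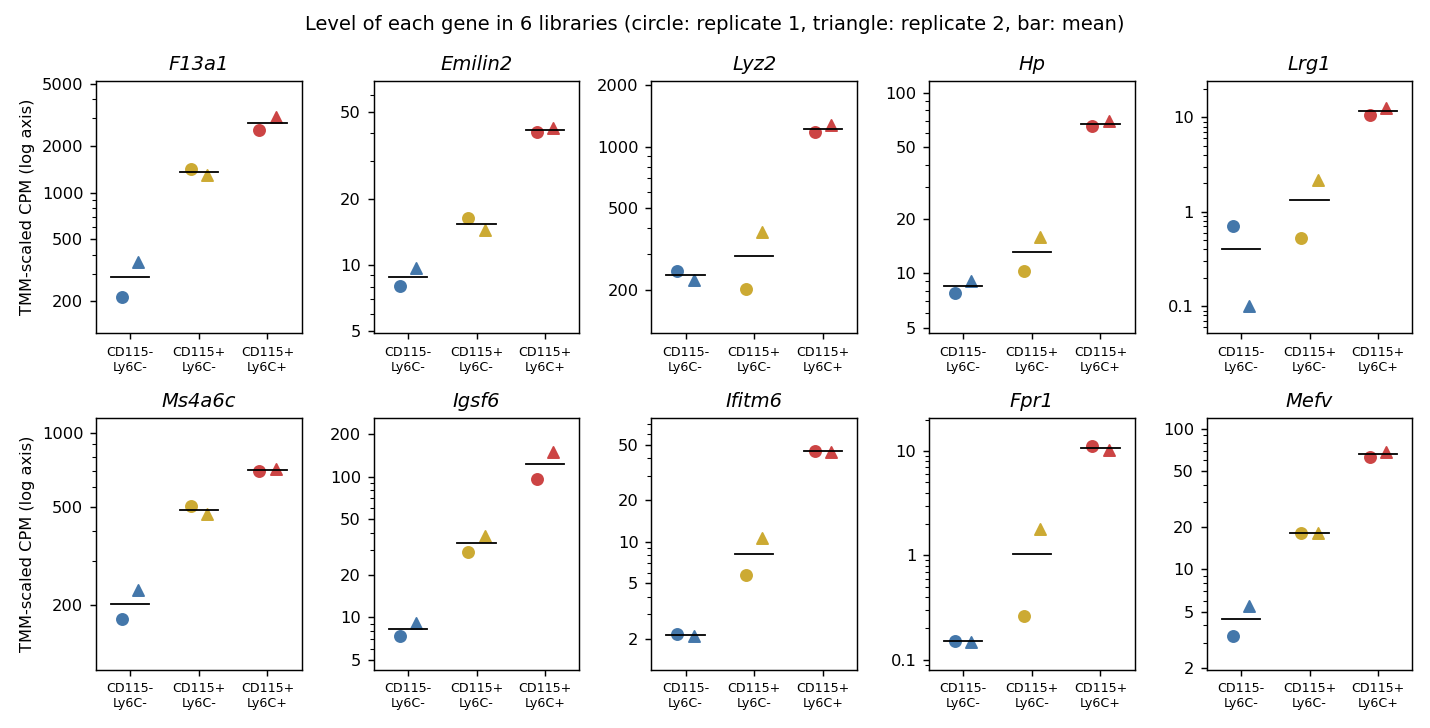
Level of each of the 10 genes in the 6 libraries, in TMM-scaled CPM on a log axis that differs between panels. Circles are replicate 1, triangles replicate 2 and bars the mean of a subset. The CD115+Ly6C+ libraries are the highest in every panel, and the lower subsets overlap for Lyz2 and Lrg1.

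Of the secreted products, F13a1 had the highest count in every library but CD115-Ly6C- replicate 1, where Lyz2 did. It encodes the catalytic A subunit of coagulation factor XIII, the transglutaminase that crosslinks fibrin. F13a1 (Entrez gene 74145, chromosome 13, 36867178 to 37050244, minus strand) stood at 2544 and 3045 CPM in CD115+Ly6C+, 1415 and 1294 CPM in CD115+Ly6C-, and 214 and 358 CPM in CD115-Ly6C-. The 3 subsets did not overlap, and the wider gap lay between the subsets sorted as Ly6C-. The fitted log2 fold change stood at 1.04 (SE 0.21) for CD115+Ly6C+ over CD115+Ly6C-, 2.24 (SE 0.22) for CD115+Ly6C- over CD115-Ly6C-, and 3.29 (SE 0.23) for CD115+Ly6C+ over CD115-Ly6C-. In FPKM, F13a1 ranked 122 and 160 among all genes of the CD115+Ly6C+ libraries, and 1147 and 1851 for CD115-Ly6C-. It held 0.243% and 0.283% of all counts in CD115+Ly6C+, against 0.0234% and 0.0379% in CD115-Ly6C-. Its exons overlap the antisense gene Gm30489, and the strand of the counting is not stated, so reads of the overlap cannot be told apart.

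Lyz2 encodes lysozyme M, which cleaves the cell wall of bacteria and is a long-used marker of myeloid cells. Lyz2 (Entrez gene 17105, chromosome 10, 117277541 to 117282272, minus strand) stood at 1180 and 1272 CPM in CD115+Ly6C+, 202 and 383 CPM in CD115+Ly6C-, and 247 and 224 CPM in CD115-Ly6C-. Both subsets without Ly6C overlapped, and the CD115+Ly6C- libraries lay on either side of the CD115-Ly6C- pair. On the log2 scale the difference was 2.07 (SE 0.25) for CD115+Ly6C+ over CD115+Ly6C- and 2.38 (SE 0.26) over CD115-Ly6C-. Between the subsets without Ly6C it was 0.31 (SE 0.24), and -0.21 without CD115+Ly6C- replicate 2. Per length, Lyz2 was the most abundant of the 10 genes in CD115+Ly6C+, with 1275 and 1338 FPKM and ranks of 65 and 54 among all genes. F13a1 came next in replicate 2 with 764 FPKM, and Ms4a6c in replicate 1 with 687 FPKM.

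Hp encodes haptoglobin, which binds free haemoglobin so that its iron is kept from microbes and tissue. Hp (Entrez gene 15439, chromosome 8, 109575128 to 109579172, minus strand) stood at 65.7 and 69.5 CPM in CD115+Ly6C+, 10.3 and 15.97 CPM in CD115+Ly6C-, and 7.80 and 9.11 CPM in CD115-Ly6C-. The subsets did not overlap, and the lower subsets lay close together. In the fit, the log2 fold change came to 2.36 (SE 0.21) for CD115+Ly6C+ over CD115+Ly6C-, 2.998 (SE 0.22) over CD115-Ly6C- and 0.63 (SE 0.22) for CD115+Ly6C- over CD115-Ly6C-.

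Emilin2, an extracellular matrix glycoprotein of elastic fibres, lay at a lower level with little spread. Emilin2 (Entrez gene 246707, chromosome 17, 71252172 to 71311556, minus strand) stood at 40.6 and 42.5 CPM in CD115+Ly6C+, 16.4 and 14.5 CPM in CD115+Ly6C-, and 8.00 and 9.70 CPM in CD115-Ly6C-. The subsets did not overlap. The fitted log2 fold change stood at 1.43 (SE 0.17) for CD115+Ly6C+ over CD115+Ly6C-, 0.80 (SE 0.17) for CD115+Ly6C- over CD115-Ly6C-, and 2.23 (SE 0.17) for CD115+Ly6C+ over CD115-Ly6C-.

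Lrg1, a leucine-rich plasma glycoprotein that modulates TGF-beta signalling, was a low-level gene outside CD115+Ly6C+. Lrg1 (Entrez gene 76905, chromosome 17, 56119678 to 56121946, minus strand) stood at 10.5 and 12.7 CPM in CD115+Ly6C+, 0.525 and 2.17 CPM in CD115+Ly6C-, and 0.705 and 0.0995 CPM in CD115-Ly6C-. Behind these were 189 and 212 counts, 10 and 41 counts, and 14 and 2 counts. The lower subsets overlapped, and in each the libraries lay several-fold apart. The fitted log2 fold change stood at 3.10 (SE 0.67) for CD115+Ly6C+ over CD115+Ly6C- and 4.83 (SE 0.77) over CD115-Ly6C-. As a ratio of summed counts, the second was 28.9, with an exact (Clopper-Pearson) 95% interval of 17.6 to 51.1. That interval covers counting error only, as does each interval below.

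Of the membrane proteins, Ms4a6c, a member of the family of proteins that span the membrane 4 times, was the most abundant. Ms4a6c (Entrez gene 73656, chromosome 19, 11469353 to 11487182, plus strand) stood at 697 and 716 CPM in CD115+Ly6C+, 505 and 468 CPM in CD115+Ly6C-, and 175 and 229 CPM in CD115-Ly6C-. The subsets did not overlap, and the highest library stood 4.09-fold above the lowest, the narrowest range of the 10 genes. On the log2 scale the difference was 0.54 (SE 0.14) for CD115+Ly6C+ over CD115+Ly6C-, 1.27 (SE 0.14) for CD115+Ly6C- over CD115-Ly6C- and 1.81 (SE 0.14) for CD115+Ly6C+ over CD115-Ly6C-.

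Igsf6, an immunoglobulin superfamily receptor of myeloid cells, differed more. Igsf6 (Entrez gene 80719, chromosome 7, 121064067 to 121074581, minus strand) stood at 96.2 and 150.5 CPM in CD115+Ly6C+, 29.3 and 37.8 CPM in CD115+Ly6C-, and 7.40 and 9.15 CPM in CD115-Ly6C-. The subsets did not overlap, and its CD115+Ly6C+ libraries lay further apart (log2 ratio 0.65) than those of the other 9 genes in that subset. In the fit, the log2 fold change came to 1.88 (SE 0.23), 2.02 (SE 0.25) and 3.90 (SE 0.25) for CD115+Ly6C+ over CD115+Ly6C-, CD115+Ly6C- over CD115-Ly6C- and CD115+Ly6C+ over CD115-Ly6C-.

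Ifitm6 belongs to the interferon-induced transmembrane family, whose better known members restrict the entry of viruses. Ifitm6 (Entrez gene 213002, chromosome 7, 141015812 to 141016892, minus strand) stood at 44.8 and 44.7 CPM in CD115+Ly6C+, 5.72 and 10.6 CPM in CD115+Ly6C-, and 2.16 and 2.09 CPM in CD115-Ly6C-. The outer subsets were tight and the middle one was not. The fitted log2 fold change stood at 2.45 (SE 0.27) for CD115+Ly6C+ over CD115+Ly6C-, 1.94 (SE 0.30) for CD115+Ly6C- over CD115-Ly6C- and 4.39 (SE 0.30) for CD115+Ly6C+ over CD115-Ly6C-.

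Fpr1 encodes the receptor for N-formyl peptides, with which phagocytes sense bacterial and mitochondrial peptides. Fpr1 (Entrez gene 14293, chromosome 17, 17876471 to 17883939, minus strand) stood at 11.2 and 10.2 CPM in CD115+Ly6C+, 0.262 and 1.80 CPM in CD115+Ly6C-, and 0.151 and 0.149 CPM in CD115-Ly6C-. The counts were 201 and 171, 5 and 34, and 3 and 3. The 6 counts in CD115-Ly6C- are the fewest of the 10 genes in a subset. The fitted log2 fold change stood at 3.37 (SE 0.64) for CD115+Ly6C+ over CD115+Ly6C- and 6.10 (SE 0.81) over CD115-Ly6C-. The ratio of summed counts was 10.4 (exact 95% interval 7.5 to 14.9) and 71.5 (32.6 to 196). These intervals do not cover the spread between libraries. Without CD115+Ly6C- replicate 1 the fitted log2 fold change for CD115+Ly6C+ over CD115+Ly6C- was 2.57, and without its replicate 2 it was 5.31.

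Mefv, the 1 cytosolic protein, encodes pyrin, a sensor that assembles an inflammasome in response to bacterial toxins. Mefv (Entrez gene 54483, chromosome 16, 3706974 to 3718211, minus strand) stood at 63.4 and 69.0 CPM in CD115+Ly6C+, 18.3 and 18.3 CPM in CD115+Ly6C-, and 3.37 and 5.52 CPM in CD115-Ly6C-. The subsets did not overlap, and the CD115+Ly6C- libraries differed by less than those of any other member in that subset (log2 ratio 0.00). On the log2 scale the difference was 1.86 (SE 0.20) for CD115+Ly6C+ over CD115+Ly6C-, 2.04 (SE 0.22) for CD115+Ly6C- over CD115-Ly6C- and 3.89 (SE 0.23) for CD115+Ly6C+ over CD115-Ly6C-.

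**Figure D2:**
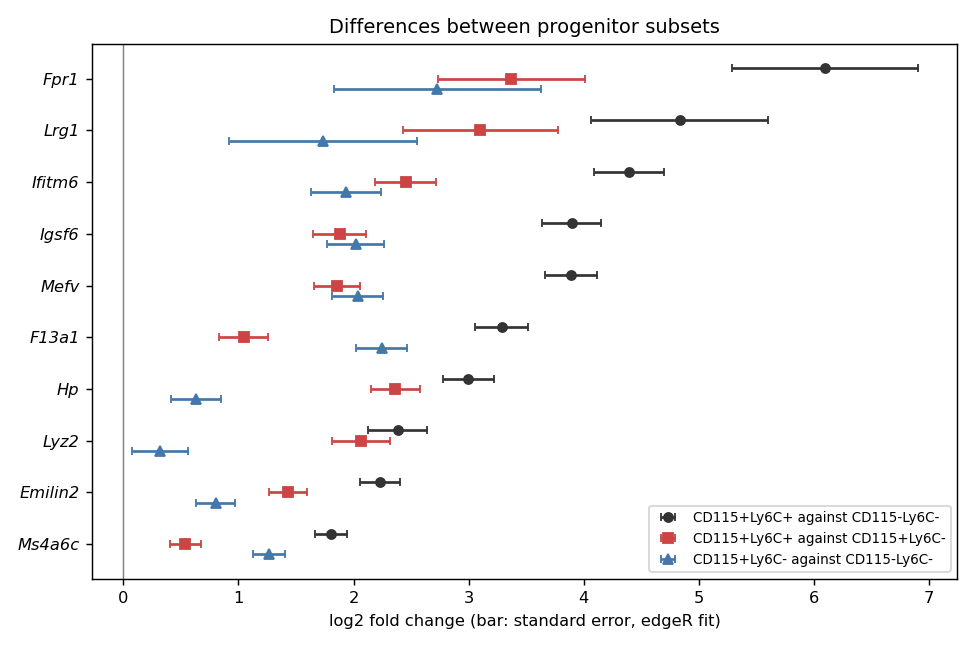
Fitted log2 fold change of each gene in 3 comparisons of subsets, with its standard error as a bar. The comparison of CD115+Ly6C+ with CD115-Ly6C- runs from 1.81 for Ms4a6c to 6.10 for Fpr1, and the 3 points of a gene share libraries.

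The median log2 fold change of the 10 genes stood at 1.97 for CD115+Ly6C+ over CD115+Ly6C-, 3.59 over CD115-Ly6C- and 1.83 for CD115+Ly6C- over CD115-Ly6C-. Over all 12127 genes tested it was -0.01, -0.03 and -0.02. These comparisons share libraries and are not independent of each other.

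The genes differed in where CD115+Ly6C- lay between the other subsets. Its place was taken as the share of the log2 distance from CD115-Ly6C- to CD115+Ly6C+ that it covered. It lay nearest CD115+Ly6C+ for Ms4a6c (70.1%) and F13a1 (68.2%). It lay about midway for Mefv (52.3%) and Igsf6 (51.8%), and below the middle for Fpr1 (44.7%), Ifitm6 (44.1%), Emilin2 (35.9%) and Lrg1 (35.9%). It lay nearest CD115-Ly6C- for Hp (21.1%) and Lyz2 (13.2%). For Fpr1, Lrg1, Lyz2, Ifitm6 and Hp the place rests on CD115+Ly6C- libraries that lay apart. Their log2 ratios of replicate 2 to replicate 1 (of CPM + 0.1) were 2.39, 1.87, 0.92, 0.88 and 0.63. The lysozyme and haptoglobin genes thus had most of their difference between the CD115+ subsets, and Ms4a6c and F13a1 most of it between the subsets without Ly6C.

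As a body, the 10 genes gave a summed level of 2880 and 3141 FPKM in CD115+Ly6C+, 1124 and 1312 FPKM in CD115+Ly6C-, and 570.1 and 629.6 FPKM in CD115-Ly6C-. F13a1, Lyz2 and Ms4a6c made up 90.8% to 96.2% of it in each library. Their share of all expected counts, with the other 7 genes, was 0.453% and 0.505%, 0.216% and 0.223%, and 0.0726% and 0.0897%. Lyz2, F13a1 and Ms4a6c were also well represented in CD115-Ly6C-, with 63.1 to 305 FPKM per gene and library.

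The spread between the libraries of a subset was uneven. In CD115+Ly6C-, the log2 ratio of replicate 2 to replicate 1 (of CPM + 0.1) was 2.39 for Fpr1, 1.87 for Lrg1, 0.92 for Lyz2, 0.88 for Ifitm6 and 0.63 for Hp. It was 0.37 for Igsf6, 0.00 for Mefv, -0.11 for Ms4a6c, -0.13 for F13a1 and -0.18 for Emilin2. The median over the 10 genes was 0.50 for CD115+Ly6C-, 0.09 for CD115+Ly6C+ and 0.25 for CD115-Ly6C-. For CD115-Ly6C-, Lrg1 went the other way with -2.01. Markers of late neutrophil granules also differed between replicates. The 12 on the list, with Ltf, Camp, S100a8, Mmp8 and Ly6g among them, had a median ratio of 2.14 for CD115+Ly6C-, -0.13 for CD115+Ly6C+ and -1.05 for CD115-Ly6C-. The medians of the 10 genes and of these markers thus had the same sign in CD115+Ly6C- and opposite signs in the other subsets. In CD115-Ly6C- the ratio of Lrg1 lay on the side of the markers, while Fpr1 (-0.01), Ifitm6 (-0.05), Lyz2 (-0.14) and Hp (0.22) lay near 0.

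All 12 had reads in each library, other than Ly6g, at 0 in CD115-Ly6C- replicate 2. Their summed level was 4286 and 4018 CPM in CD115+Ly6C+, 234.6 and 939.9 CPM in CD115+Ly6C-, and 319.4 and 153.7 CPM in CD115-Ly6C-. It was therefore highest in CD115+Ly6C+, as were all 10 genes. The part of neutrophil-lineage cells or their RNA in the levels of Fpr1, Lrg1, Lyz2, Ifitm6 and Hp was not tested. Early granule markers (Mpo, Elane, Prtn3, Ctsg and Ms4a3) summed to 5271 and 6060 CPM in CD115+Ly6C+, 5479 and 4603 CPM in CD115+Ly6C-, and 2790 and 3081 CPM in CD115-Ly6C-, most of it Mpo. The other 4 were higher in the comparison of CD115+Ly6C+ with CD115+Ly6C- (log2 fold change 1.52 for Elane, 1.17 for Prtn3, 0.94 for Ctsg and 1.96 for Ms4a3, edgeR adjusted p = 0.0118, 0.00274, 0.00285 and 0.0211), and all 5 in that with CD115-Ly6C-. Macrophage markers summed to 109.7 to 120.0 CPM, of which Cd163 gave 97.3 to 112.7 CPM, and Mertk, C1qa, C1qb and C1qc were at or near 0. Without Cd163 the sum was 13.8 and 16.1 CPM in CD115+Ly6C+, 6.82 and 7.27 CPM in CD115+Ly6C-, and 4.08 and 4.43 CPM in CD115-Ly6C-. Most of that in CD115+Ly6C+ was Adgre1, which encodes F4/80 and was higher there than in the other subsets (1.18 and 3.03, edgeR adjusted p = 0.0375 and 2.34e-04). The part of cells with these markers in the levels of the 10 genes was not tested. T cell markers ran from 4.73 CPM in CD115+Ly6C+ to 147.8 CPM in CD115-Ly6C-, most of it Lck, and erythroid markers from 3.77 to 10.9 CPM. B lineage markers ran from 92.21 to 109.7 CPM, most of it Cd79b. Dendritic cell markers summed to 175.0 and 192.2 CPM in CD115+Ly6C+, 119.9 and 137.4 CPM in CD115+Ly6C-, and 221.1 and 223.7 CPM in CD115-Ly6C-. Between the CD115+ subsets, Cd209a, Zbtb46 and H2-Aa were higher in CD115+Ly6C+ (2.56, 2.42 and 1.60, edgeR adjusted p = 0.00106, 0.018 and 0.00358). Siglech was lower (-0.53, edgeR adjusted p = 0.0471), and Itgax was not called (edgeR adjusted p = 0.999).

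**Figure D3:**
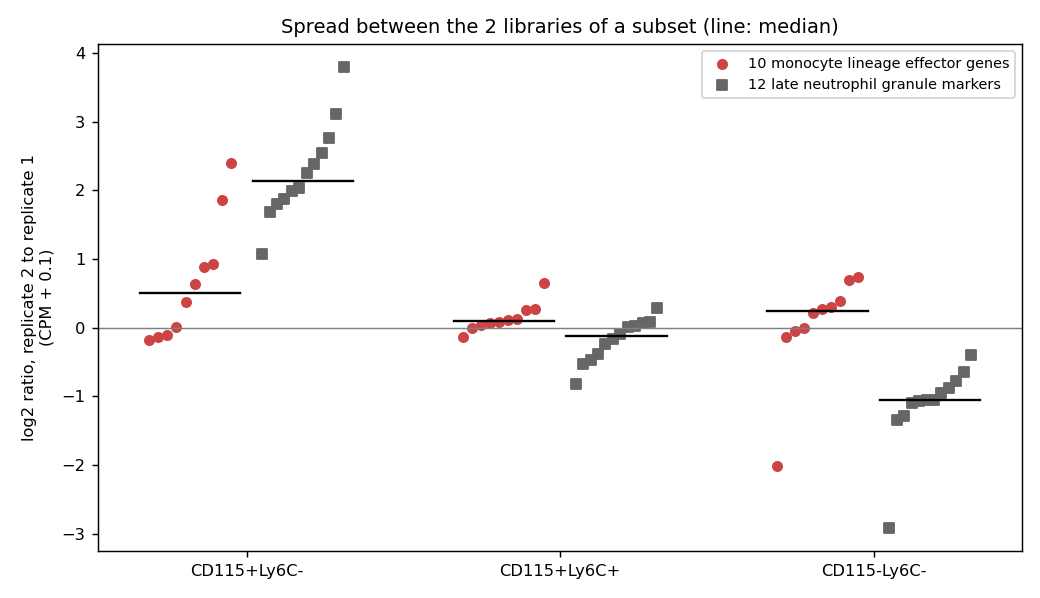
Log2 ratio of replicate 2 to replicate 1 in each subset, computed on CPM + 0.1, for the 10 genes (circles) and 12 late neutrophil granule markers (squares), with medians as lines. In CD115+Ly6C- the medians are 0.50 and 2.14, and Fpr1 and Lrg1 are the 2 circles that lie among the squares.

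The relatives, partners and other monocyte genes below were listed with earlier results of these data known, and were tested by edgeR with Benjamini-Hochberg adjustment over all 12127 genes. Of 74 listed, 59 were tested. In CD115+Ly6C+ over CD115+Ly6C-, 19 were higher and 0 lower, beside 5.26% and 4.34% of all genes. With an unadjusted p under 0.05 there were 34 and 2, and DESeq2 called 26 higher and 0 lower. In CD115+Ly6C+ over CD115-Ly6C-, 36 were higher and 8 lower, beside 19.2% and 20.1%. In CD115+Ly6C- over CD115-Ly6C-, 14 were higher and 6 lower, beside 6.78% and 8.43%. The 19 fell to 8 without CD115+Ly6C- replicate 1, 11 without its replicate 2 and 9 without CD115+Ly6C+ replicate 2. The 14 fell to 8 without CD115+Ly6C- replicate 1, and to 5 without its replicate 2 or without CD115-Ly6C- replicate 1. The 6 fell to 1 without CD115+Ly6C- replicate 1 or CD115-Ly6C- replicate 1, and to 3 without CD115-Ly6C- replicate 2.

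Of 14 tested family relatives, 8 were higher and 0 lower in the comparison of CD115+Ly6C+ with CD115+Ly6C-, and 9 were higher and 2 lower in that with CD115-Ly6C-. The 8 fell to 2 without CD115+Ly6C- replicate 1 or CD115+Ly6C+ replicate 2, and to 4 without CD115+Ly6C- replicate 2. The second lysozyme gene, Lyz1, stood at 49.7 and 58.0 CPM in CD115+Ly6C+, 8.55 and 15.3 CPM in CD115+Ly6C-, and 9.76 and 8.36 CPM in CD115-Ly6C-. Its level in CD115+Ly6C+ exceeded that of CD115+Ly6C- (a log2 difference of 2.17, SE 0.26, edgeR adjusted p = 0.00255) and that of CD115-Ly6C- (2.57, SE 0.26, edgeR adjusted p = 2.08e-04). Both calls held whichever library was left out. Between the subsets without Ly6C no difference was detected (0.39, SE 0.26, edgeR adjusted p = 0.338), and the values of Lyz2 overlapped there. Lyz1 gave 3.61% to 4.36% of the reads of the pair in each library. Of 50-base stretches in Lyz2 transcripts, 15.4% also occur in Lyz1, and the estimated counts split such reads, so the Lyz1 values are not independent of Lyz2.

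Among the relatives of Ms4a6c, Ms4a6b stood at 338 and 472 CPM in CD115+Ly6C+, 213 and 225 CPM in CD115+Ly6C-, and 83.3 and 113 CPM in CD115-Ly6C-. It differed in all 3 comparisons (edgeR adjusted p = 0.0241, 1.31e-04 and 0.00632), of which the first was lost on leaving out any 1 of the CD115+Ly6C- libraries, or CD115+Ly6C+ replicate 2 (0.0934 to 0.158). Ms4a4c stood at 197 and 292 CPM, 92.3 and 78.5 CPM, and 36.9 and 51.6 CPM in the same order (edgeR adjusted p = 0.00513 for CD115+Ly6C+ over CD115+Ly6C-). That call was lost without CD115+Ly6C- replicate 2 (0.0507). Its lead in CD115+Ly6C- over CD115-Ly6C- (0.0225) was lost on leaving out any 1 of the CD115+Ly6C- libraries, or CD115-Ly6C- replicate 1 (0.0608 to 0.141). Ms4a6d, at 8.47 and 12.8 CPM in CD115+Ly6C+ and 1.63 and 2.71 CPM in CD115+Ly6C-, was called (log2 fold change 2.29, edgeR adjusted p = 0.0117) but not without CD115+Ly6C- replicate 1 or CD115+Ly6C+ replicate 2 (0.0837 to 0.0859). Ms4a3, a gene of granule-forming progenitors, was also called higher between the CD115+ subsets, in CD115+Ly6C+ (1.96, edgeR adjusted p = 0.0211), which was lost without the same libraries (0.109 to 0.118). Ms4a4b missed the threshold in that comparison (0.57, SE 0.16, edgeR adjusted p = 0.0543) and passed over CD115-Ly6C- (1.38, SE 0.16, edgeR adjusted p = 3.62e-04). Ms4a2 passed in none of the 3 comparisons (edgeR adjusted p = 0.186 to 0.52).

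Among the relatives of Ifitm6, Ifitm3, a restriction factor for viral entry, stood at 91.6 and 122 CPM in CD115+Ly6C+, 54.5 and 63.9 CPM in CD115+Ly6C-, and 81.1 and 70.6 CPM in CD115-Ly6C-. Its level in CD115+Ly6C+ exceeded that of CD115+Ly6C- (0.85, SE 0.16, edgeR adjusted p = 0.0179), a call lost on leaving out any 1 of the CD115+Ly6C- libraries, or CD115+Ly6C+ replicate 2 (0.0531 to 0.141). Its lead over CD115-Ly6C- (0.49, edgeR adjusted p = 0.0392) was lost with library totals (0.167) and on leaving out any 1 of 4 libraries (0.0512 to 0.263). Ifitm2 was higher in CD115+Ly6C+ than CD115-Ly6C- (0.81, SE 0.11, edgeR adjusted p = 8.89e-04), and Ifitm1 passed in none of the 3 comparisons (edgeR adjusted p = 0.249 to 0.897). The difference between Ifitm6 and these genes was not tested.

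Fpr2, which senses formyl and other peptides, had few counts, with 74 and 44 counts in CD115+Ly6C+, 3 and 9 counts in CD115+Ly6C-, and 3 and 3 counts in CD115-Ly6C-. Its level in CD115+Ly6C+ exceeded that of CD115+Ly6C- (3.39, SE 0.68, edgeR adjusted p = 0.0206), but not without CD115+Ly6C- replicate 1 or any 1 of the CD115+Ly6C+ libraries (0.0764 to 0.132). Against CD115-Ly6C- it was called too (edgeR adjusted p = 0.00215). For the emilin relatives no difference was detected between the CD115+ subsets (Emilin1 0.00, edgeR adjusted p = 0.997, and Mmrn1 -0.22, edgeR adjusted p = 0.852), and both were lower in CD115+Ly6C+ when set against CD115-Ly6C-. The sign of each in the first comparison depended on the settings. Emilin1 stood at 54.5 and 56.2 CPM in CD115+Ly6C+, 40.0 and 70.5 CPM in CD115+Ly6C-, and 106 and 96.2 CPM in CD115-Ly6C-. Its log2 fold change over CD115-Ly6C- (-0.87, SE 0.23, edgeR adjusted p = 0.0157) was a call lost on leaving out any 1 of the CD115+Ly6C+ libraries, or CD115-Ly6C- replicate 1 (0.0538 to 0.0652). Mmrn1, which encodes multimerin, stood at 5.18 and 6.42 CPM in CD115-Ly6C- and under 1 CPM in the other 4 libraries (-3.81, SE 0.56, edgeR adjusted p = 0.00112 for CD115+Ly6C+ over CD115-Ly6C-). The transglutaminase Tgm1 was under 1 CPM in every library with 0 counts in CD115+Ly6C-, and is named only because it was among the genes called.

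**Figure D4:**
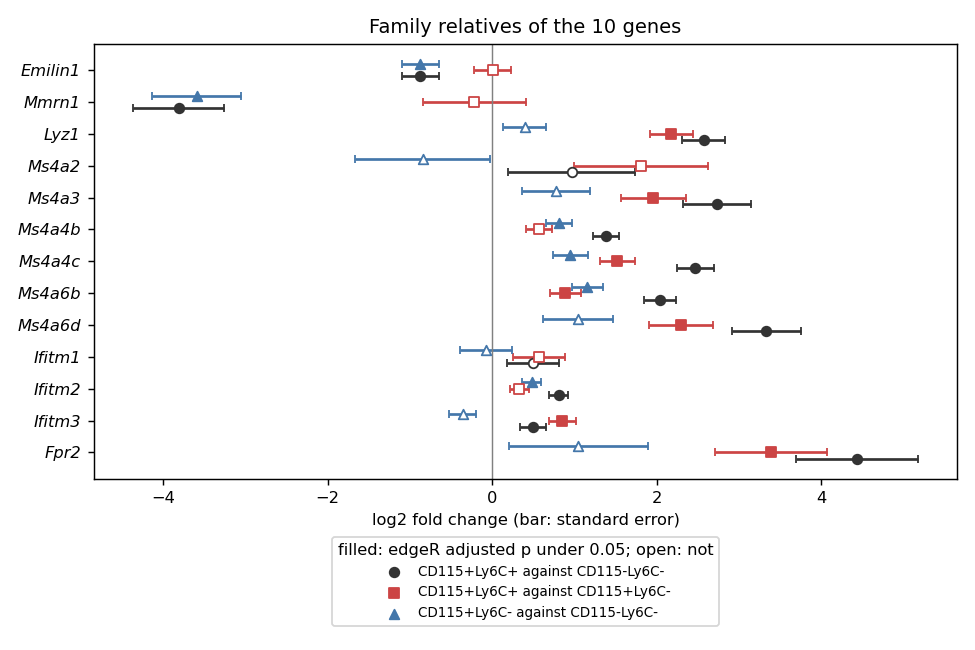
Log2 fold change, with its standard error, of 13 family relatives in 3 comparisons of subsets. Filled symbols are edgeR adjusted p under 0.05. Mmrn1 and Emilin1 lie on the left over CD115-Ly6C-, and Lyz1 and Fpr2 on the right against both other subsets.

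Partners of single members were read from lists by pathway. For formyl peptide signalling, which couples Fpr1 through a G protein to the phagocyte oxidase, 4 of 7 genes were higher and 0 lower in CD115+Ly6C+ over CD115+Ly6C- (DESeq2 gave the same counts), and 6 of 7 higher than in CD115-Ly6C-. The 4 fell to 2 without CD115+Ly6C- replicate 1, CD115+Ly6C- replicate 2 or CD115+Ly6C+ replicate 2. Anxa1, whose product annexin A1 is a ligand of formyl peptide receptors, stood at 339 and 467 CPM in CD115+Ly6C+, 110 and 136 CPM in CD115+Ly6C-, and 97.4 and 108 CPM in CD115-Ly6C-. Its level in CD115+Ly6C+ exceeded either other subset (log2 differences of 1.71, SE 0.17, edgeR adjusted p = 0.00143, and 1.97, SE 0.17, edgeR adjusted p = 9.98e-05). Cybb, the catalytic chain of the oxidase, stood at 126 and 147 CPM, 52.3 and 65.2 CPM, and 39.1 and 46.1 CPM (1.21, SE 0.15, edgeR adjusted p = 0.00307 for the CD115+ subsets). Calls of Anxa1 and Cybb held whichever library was left out. Cyba, a further chain of the oxidase, was called between the CD115+ subsets (0.77, edgeR adjusted p = 0.0229). This call was lost on leaving out any 1 of the CD115+Ly6C- libraries, or CD115+Ly6C+ replicate 2 (0.107 to 0.126).

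For the inflammasome in which pyrin acts, 2 of 10 genes were higher and 0 lower in CD115+Ly6C+ over CD115+Ly6C- (also by DESeq2), and 3 of 10 were higher than in CD115-Ly6C-. Pycard, the adaptor ASC that pyrin binds, stood at 283 and 296 CPM in CD115+Ly6C+, 198 and 218 CPM in CD115+Ly6C-, and 141 and 161 CPM in CD115-Ly6C- (0.48, SE 0.11, edgeR adjusted p = 0.0359 for the CD115+ subsets). Gsdmd, the pore-forming gasdermin D, was called there as well (0.56, SE 0.12, edgeR adjusted p = 0.0225), and both calls were lost on leaving out any 1 of the 4 CD115+ libraries (0.0768 to 0.201). Casp1, the protease that an inflammasome activates, was not past the threshold between the CD115+ subsets (0.21, SE 0.13, edgeR adjusted p = 0.324) and was higher in CD115+Ly6C+ than CD115-Ly6C- (0.70, SE 0.13, edgeR adjusted p = 0.00383). Among partners of Lrg1, 0 of 5 were called between the CD115+ subsets by edgeR, with 1 higher and 1 lower at an unadjusted p under 0.05 and 1 higher by DESeq2. Against CD115-Ly6C-, the type II receptor gene Tgfbr2 (-1.81, SE 0.29, edgeR adjusted p = 0.00178) and Eng (-0.80, SE 0.13, edgeR adjusted p = 0.00195) were lower in CD115+Ly6C+, and Acvrl1, a type I receptor gene, was higher (2.21, SE 0.41, edgeR adjusted p = 0.00362). Of the partners of haptoglobin, its scavenger receptor Cd163 and the haem oxygenase gene Hmox1 were tested, and 0 of 2 were called in each comparison by edgeR or DESeq2, with 0 at an unadjusted p under 0.05 by edgeR. Cd163 stood at 97.3 to 112.7 CPM in the 6 libraries. Its expected counts were not whole in any library (1713.19 to 2135.7), so some of its reads may be shared with other genes.

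Other monocyte genes, 21 tested, had 5 higher and 0 lower in CD115+Ly6C+ over CD115+Ly6C-, and 17 higher and 4 lower over CD115-Ly6C-. The 5 were 9 by DESeq2 or with no filter on low counts, 1 was lower with library totals, and 15 higher and 1 lower had an unadjusted p under 0.05. In the first comparison Ly6c2, whose protein was sorted on, had an edgeR adjusted p of 4.68e-04, and S100a4, Fcgr3 and Lgals3 followed (7.66e-04, 9.87e-04 and 0.00179). These 4 calls held whichever library was left out. Fcgr3, an Fc receptor for IgG, stood at 30.4 and 39.9 CPM in CD115+Ly6C+, 5.93 and 7.27 CPM in CD115+Ly6C-, and 3.02 and 2.64 CPM in CD115-Ly6C-. Ccr2, the chemokine receptor that brings monocytes out of the marrow, stood at 567 and 671 CPM, 230.5 and 248 CPM, and 49.1 and 77.8 CPM. It differed between the subsets without Ly6C (1.91, SE 0.20, edgeR adjusted p = 0.00136).

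The genes most like each member were sought among 8203 tested genes with a mean of at least 5 FPKM in their highest subset. Likeness was the root mean square difference between profiles of log2(CPM + 1) over the 6 libraries, each centred on its mean. It is a description over 6 libraries that share subsets, and adding 1 flattens the profiles of genes as low as Lrg1 and Fpr1. Lyz2 was nearest to Lyz1 (0.065), then Mgst1 (0.123) and Pglyrp1 (0.134), which encodes a peptidoglycan recognition protein. F13a1 was nearest to Ccr2 (0.174), then Met (0.292) and Clec9a (0.297). Mefv lay nearest to Mtus1 (0.141) and Ccr2 (0.197), and Igsf6 also to Mtus1 (0.205). Hp was nearest to Gm14548 (0.117) and S100a6 (0.152), and Ifitm6 to Clec5a (0.204). Fpr1 was nearest to Ly6c1 (0.139), a gene of the sorted antigen Ly6C. Lrg1 was nearest to a gene known only by a number of the submitters (0.127) and then to Trem3 (0.167). Emilin2 was nearest to 1700012B09Rik (0.104) and Ralb (0.12). The level of 1700012B09Rik was only 0.252 to 5.45 CPM, so adding 1 flattens its profile too. Ms4a6c was nearest to Cdkn3 (0.09), Ube2c (0.096), an enzyme of mitotic exit, and Birc5 (0.102), which encodes survivin. Among the 10 genes themselves, the closest were Igsf6 and Mefv (0.203), then Fpr1 and Lrg1 (0.222) and Lyz2 and Hp (0.242).

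The deposited tables also give the length of each gene in a library, weighted by the abundance of its transcripts. These values were looked at after the levels were seen. For Ms4a6c the length was 1141 and 1059 nucleotides in CD115+Ly6C+, 1228 and 1190 nucleotides in CD115+Ly6C-, and 1232 and 1211 nucleotides in CD115-Ly6C-. Both CD115+Ly6C+ libraries were shorter than the other 4. For the other 9 genes the longest value was at most 1.05 times the shortest, against 1.16 times for Ms4a6c. With 2 libraries against 2, an exact two-sided permutation test cannot go below p = 0.333, so none was run. The GENCODE vM21 annotation lists an Ms4a6c transcript of 1841 nucleotides in 7 exons and another of 639 nucleotides in 3 exons. The transcript set behind the deposited lengths is not stated and may differ. Of 50-base stretches in Ms4a6c transcripts, 10.5% occur in other genes, Ms4a6b among them. The exons of Ms4a6c also overlap BE692007 on the opposite strand, so the estimated lengths may draw on reads of these genes. The expected counts of Ms4a6c were whole in every library but CD115-Ly6C- replicate 2 (4598.01). The part of shared reads in the lengths was not tested. FPKM divides by this length, and the highest Ms4a6c library stood 4.16-fold above the lowest in FPKM, against 4.09-fold in CPM.

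**Figure D5:**
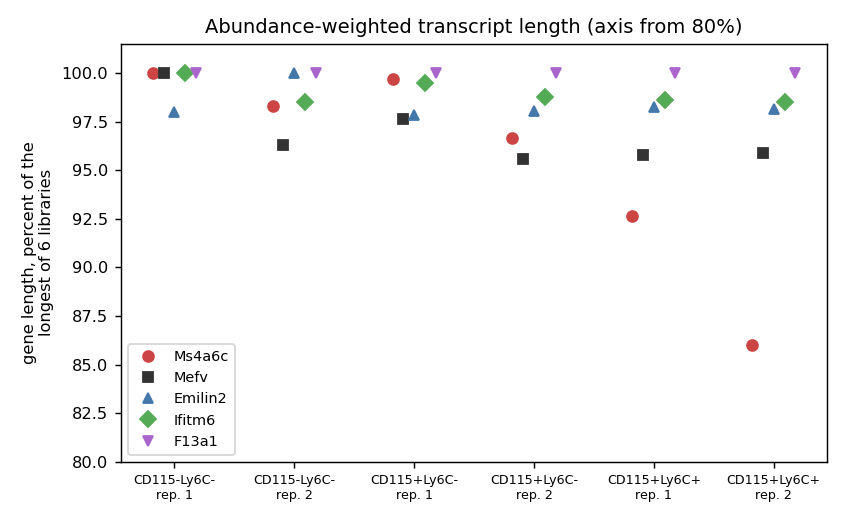
Abundance-weighted gene length in each library as a percent of the longest of the 6, on an axis that starts at 80%, for Ms4a6c and 4 other members. Ms4a6c is lowest in the CD115+Ly6C+ libraries, while F13a1 is level in all 6.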

How the data were processed

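RNA of 6 libraries, 2 from each of 3 sorted progenitor subsets, was analysed from tables per library. Per the submitters' processing notes, Bowtie2, RSEM and mm10 were used, with no version or setting given in the sources used here. Per the file headers, the deposited tables hold expected counts (estimated read counts that need not be whole), FPKM and gene length. Non-whole values (tolerance 1e-06) made up 12.6% of the authors' expected counts above 0, and all were rounded. A gene not listed in a library was taken as 0. Of 16135 genes, 15332 matched RefSeq on GRCm38.p6, which gave coordinates counted from 1. Exons came from the GENCODE vM21 annotation of the same assembly.

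Levels are TMM-scaled CPM. All 6 libraries entered 1 fit of edgeR 4.0.16 (R 4.3.3; quasi-likelihood F test, filterByExpr with minimum count 10 and total 15, 12127 genes, Benjamini-Hochberg, threshold 0.05). Each SE was computed by dividing the absolute log2 fold change by the root of its F value. The fit was tested on simulated data. DESeq2 1.42.0, limma 3.58.1, other scalings, no filter, a replicate block and leaving out each library were alternatives.

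The 10 genes and all lists were chosen with earlier results of these data known. Text names all 10, relatives with at least 1 CPM in a library, up to 4 called genes per list and comparison by smallest adjusted p, and the 3 nearest genes of a member or fewer. Tgm1 was named outside this rule. Some genes that the rule names are not reported here. Gene lengths, 50-base stretches shared between transcripts, the end of the printed promoters before the annotated gene, counting intervals and the count of the 10 genes past the threshold under each alternative were added after the data were seen.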

Additional observations from a re-analysis of the deposited data

How the results depend on the processing

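Each count of tested genes and each of the 10 genes was recomputed under every alternative. The median log2 fold change of the 10 genes, 1.97, ranged from 1.78 to 2.33 on leaving out each library for CD115+Ly6C+ against CD115+Ly6C-. It ranged from 3.27 to 3.87 against CD115-Ly6C- and from 1.11 to 2.11 for CD115+Ly6C- against CD115-Ly6C-. With limma on log2(FPKM + 1) the last 2 medians were 3.003 and 0.90, and with log2(FPKM + 0.1) the last was 1.51, since a pseudocount shrinks the change of low genes. How many of the 10 genes were past the threshold under each alternative was added after the data were seen. The share of all genes was not computed for the alternatives. Nothing is read from these counts, because the same values chose the genes.

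Of relatives, partners and monocyte genes, 8 to 21 were higher and 0 lower in CD115+Ly6C+ against CD115+Ly6C- on leaving out each library, 31 to 36 and 6 to 8 against CD115-Ly6C-, and 5 to 15 and 1 to 4 in CD115+Ly6C- against CD115-Ly6C-. With library totals, with no filter and with the replicate block, 1 was lower in the first comparison.

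Whether the replicate numbers pair the samples cannot be settled from 2 libraries per subset. Deviations of same-numbered libraries correlated at -0.0336, -0.0437 and 0.25, the last for CD115+Ly6C+ with CD115-Ly6C-. With the replicate block, 22 of the relatives, partners and monocyte genes were higher in the first comparison. Of the 10 genes, 9 were past the threshold there, from which nothing is read, because the same values chose the genes. Of other monocyte genes, 8 were then higher and 1 lower there. Other values under the block were 1.98, 3.59 and 1.77 for the medians.

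Directions that reversed in CD115+Ly6C- against CD115-Ly6C- were those of Lyz2 (-0.21) and Lyz1 (-0.0781) without CD115+Ly6C- replicate 2, and of Ifitm1 without CD115+Ly6C- replicate 1 (0.29) or CD115-Ly6C- replicate 2 (0.20). On leaving out each library they ranged from -0.21 to 0.71, -0.0781 to 0.76 and -0.54 to 0.29. In CD115+Ly6C+ against CD115+Ly6C-, Mmrn1 reversed without CD115+Ly6C+ replicate 1 (0.33, range -1.07 to 0.33), and Emilin1 (range -0.35 to 0.46) with library totals (-0.0686), limma on log2(FPKM + 1) and log2(FPKM + 0.1) (-0.0145 and -0.0121) and without CD115+Ly6C- replicate 1 (-0.35), CD115+Ly6C+ replicate 2 (-0.02) or CD115-Ly6C- replicate 1 (-0.002). The cause was not tested. For the promoters, 0 genes held the ETS-IRF composite within 100 bases. Fpr1 and Lrg1 rest on at most 41 counts a library outside CD115+Ly6C+, which limits their values there.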
